A study of Homo sapiens with 40 samples.

Results

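Gene expression was compared between MDA-MB-231 cells exposed to 100 µM zoledronate for 24 h and mock-treated cells harvested at 24 h from the same lot. The arrays were chosen by their sample titles and labelled lot, 4 treated and 4 control, which makes 8 of the 40 arrays of the study. MDA-MB-231 is an established human breast cancer line of the triple-negative, mesenchymal type that is used as a model of metastasis to bone. Cells grew as subconfluent cultures in DMEM with 10% fetal bovine serum, zoledronate or its solvent was added to that medium, and each culture dish was lysed for total RNA. Both groups belong to lot II and to the same time point, and they differ by the labels only in the agent. What the submitters mean by a lot was left unstated in their labels. The study has 10 groups of 4 arrays in all. Besides the 2 groups described here, lot II holds mock-treated cultures and cultures with 30 µM zoledronate, both of 48 h, and the remaining groups, of 12 h and 24 h, are from lot I and comprise mock treatment, 30 µM zoledronate or 2 µM fluvastatin. The design text gives 30 µM as the IC50 of zoledronate at 72 h, so 100 µM lies above it. One cell line stands behind every array, so differences between lines were not measured.

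Zoledronate is a nitrogen-containing bisphosphonate that is given against bone loss and bone metastasis. It inhibits farnesyl diphosphate synthase, the product of FDPS, which makes the farnesyl and, through GGPS1, the geranylgeranyl groups that anchor Ras, Rac and Rab GTPases in membranes. Prenylated small GTPases act on the actin cytoskeleton, and actin tension in turn governs the transcriptional co-activators YAP and TAZ and the serum response factor SRF. Fluvastatin, a statin, blocks the same mevalonate pathway at an earlier step.

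The values are log2 signals, so that a difference of 1 is a 2-fold change of the signal, and the signal of a gene is compared only with the same gene on other arrays. Differences are given as treated minus control ± SE from limma over n = 4 pairs, and a gene rose or fell where its adjusted p was under 0.05. Arrays of the same group correlated at r = 0.9941 to 0.9971 over 18417 genes, and treated with control arrays at 0.9803 to 0.9887. The first principal component, with 66.8% of the variance, separated the treated from the control arrays. Treated replicate 1 lay nearest to the controls on it, at −16.9 against −25.6 to −23.4 for the other treated arrays, and control replicate 4 stood apart on the second component, at 18.9 against −8.1 to 5. The median SD within a group was 0.11 in both groups. Among markers of the labelled line, the mesenchymal filament gene VIM read 12.48, 12.47, 12.42 and 12.44 on the treated and 12.38, 12.32, 12.28 and 12.29 on the control arrays, and did not pass. All arrays are of this line, so such values cannot check its identity. Of 8 markers of the line 1 rose and 3 fell, where 32.0% of all genes passed in either direction, and their mean lay between 10.43 and 10.52 on the treated and 10.61 and 10.71 on the control arrays, so that every treated array was below every control array.

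Zoledronate at 100 µM changed a large share of the measured genes within 24 h. Of 18417 genes, 2826 rose and 3062 fell, which is 15.3% and 16.6% of all genes tested, and 12529 did not pass (limma, adjusted p under 0.05). The median change was 0.39 among the risen genes and −0.37 among the fallen ones. The shares of all genes, 15.3% risen and 16.6% fallen, stand beside the counts of every gene list below. A change of at least 2-fold was reached by 172 risen genes (0.934% of all) and by 156 fallen genes (0.847%). For 6076 genes (33.0%) the 4 treated and the 4 control arrays did not overlap, and 5144 of the 5888 genes that passed were among them. In 8438 genes (45.8%) all 4 pairs of arrays went 1 way, 5708 of the passed genes included. Without replicate 1, 2, 3 or 4 of both groups, between 4875 and 5101 genes passed. Of the genes named here as risen or fallen, 27 did not pass without one of the 4 replicates, with adjusted p from 0.05 to 0.31 (limma): ABCA1, ABCC3, ADM, ATG5, AURKB, BTN3A3, CD14, CDC20, CDKN1C, CDKN3, GGPS1, KLF4, KLF5, MIR106B, MIR15B, MIR25, MIR99A, MIR99B, MMP1, PGGT1B, QARS1, RPL3, SCAP, SDHC, SMPDL3A, SOD2 and TPM2.

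**Figure D1:**
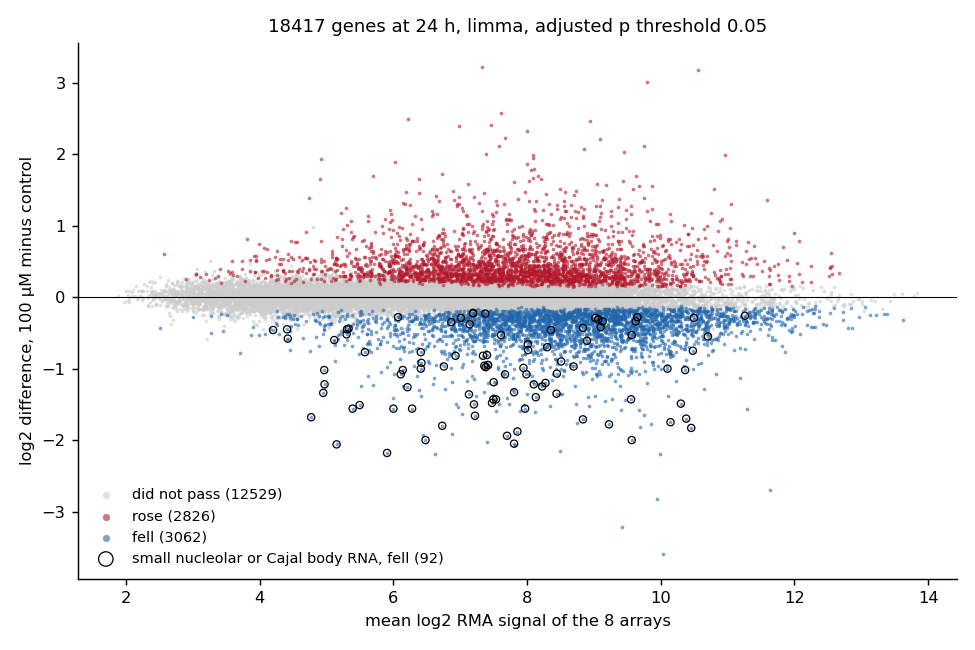
Log2 difference (100 µM zoledronate minus control, vertical axis) against the mean log2 signal of the 8 arrays (horizontal axis) for 18417 genes, with one point per gene. Red points are the 2826 genes that rose, blue points the 3062 that fell and grey points the 12529 that did not pass; black circles mark 92 fallen small nucleolar and Cajal body RNA genes, which reach down to −2.18 for SNORD82.

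The largest rises came from genes of several kinds. TCP11L2 read 8.52, 9.08, 9.05 and 9.11 on the treated arrays and 5.16, 5.19, 5.95 and 6.57 on the controls, a rise of 3.22 ± 0.37 (adjusted p = 2.67e-07). NDRG1, a gene induced by hypoxia and cell stress, read 11.82, 12.32, 12.27 and 12.20 after zoledronate and 8.41, 8.74, 9.24 and 9.51 without it, a rise of 3.18 ± 0.26 (adjusted p = 3.67e-09), or 9.06-fold. In both genes every treated array stood above every control array by more than the spread within either group, and control replicates 3 and 4 read higher than control replicates 1 and 2. RHOB, which encodes a small GTPase of endosomes and the cell membrane, read 11.30, 11.16, 11.34 and 11.42 against 8.06, 8.26, 8.34 and 8.52 in the controls, a rise of 3.01 ± 0.21 (adjusted p = 3.87e-10). ITGB4, the beta chain of the hemidesmosome integrin, read 9.26, 8.84, 8.66 and 8.83 against 6.29, 6.27, 6.41 and 6.32, a rise of 2.58 ± 0.21 (adjusted p = 2.49e-09). Its control arrays lay within 0.14 of each other, and none came near the treated ones. ITGA10, the alpha chain of a collagen-binding integrin, rose by 2.41.

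Further large rises were those of AGR2, ELF3 and SPDEF. AGR2, a protein disulfide isomerase of secretory epithelia, read 6.79, 7.74, 7.56 and 7.78 against 4.61, 4.70, 4.98 and 5.63 in the controls, a rise of 2.49 ± 0.28 (adjusted p = 2.46e-07). ELF3, an ETS factor of epithelial cells, read 7.55, 8.40, 8.40 and 8.33 against 5.32, 5.91, 5.85 and 6.02, a rise of 2.40 ± 0.15 (adjusted p = 1.02e-10). In both genes treated replicate 1 was the lowest treated array and still stood above all controls. SPDEF, an ETS factor of luminal and goblet cells, rose by 2.23 ± 0.22 (adjusted p = 5.11e-08), and GALNT5, an enzyme that starts mucin-type sugar chains, by 2.21. CST1, a secreted inhibitor of cysteine proteases, rose by 2.12. AKR1C1 and AKR1C3, aldo-keto reductases that act on steroids, rose by 2.12 and 2.03. A second, dimmer AKR1C1 probe set differed by 1.02. The AKR1C genes are close copies of each other, so the split of signal between them is uncertain. BHLHE40, a repressor tied to hypoxia and the clock, rose by 2.47, TSC22D3, a glucocorticoid-induced leucine zipper gene, by 2.33, and DDIT4, an inhibitor of the growth kinase mTORC1, by 2.07.

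The 4 largest falls were in genes of secreted proteins and of a nuclear protein, of which CCN1, CCN2 and ANKRD1 are known targets of YAP and TAZ. CCN1, a secreted matrix protein, read 9.06, 8.12, 7.95 and 7.77 on the treated arrays and 11.94, 11.88, 11.81 and 11.68 on the controls, a difference of −3.60 ± 0.24 (adjusted p = 1.69e-10), or 12.1-fold lower. DKK1, a secreted Wnt inhibitor that restrains bone-forming osteoblasts, read 8.60, 7.80, 7.41 and 7.43 against 11.16, 11.08, 11.01 and 10.84, a difference of −3.21 ± 0.21 (adjusted p = 1.49e-10). CCN2, the connective tissue growth factor gene, read 8.72, 8.47, 8.46 and 8.45 against 11.39, 11.40, 11.34 and 11.26, a difference of −2.82 ± 0.20 (adjusted p = 5.57e-10). The controls of these 3 genes lay close together, and in each gene treated replicate 1 was the highest treated array. ANKRD1, a nuclear ankyrin-repeat protein gene, read 10.98, 10.14, 10.12 and 9.89 against 13.01, 13.01, 13.01 and 12.92, a difference of −2.70 ± 0.20 (adjusted p = 5.86e-10). The cytokine receptor gene IL7R fell by 2.20 and the activin antagonist gene FST by 2.19 on the log2 scale. TGFB2, a TGF-beta ligand, fell by 2.15, NEXN, an actin-binding protein gene, by 2.07, and HHIP, the hedgehog-interacting protein gene, by 2.03. The other 6 of the 15 largest falls were small nucleolar RNA genes, SNORD82, SNORD20, SNORD12C, SNORD77, SNORD75 and SNORA74A.

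**Figure D2:**
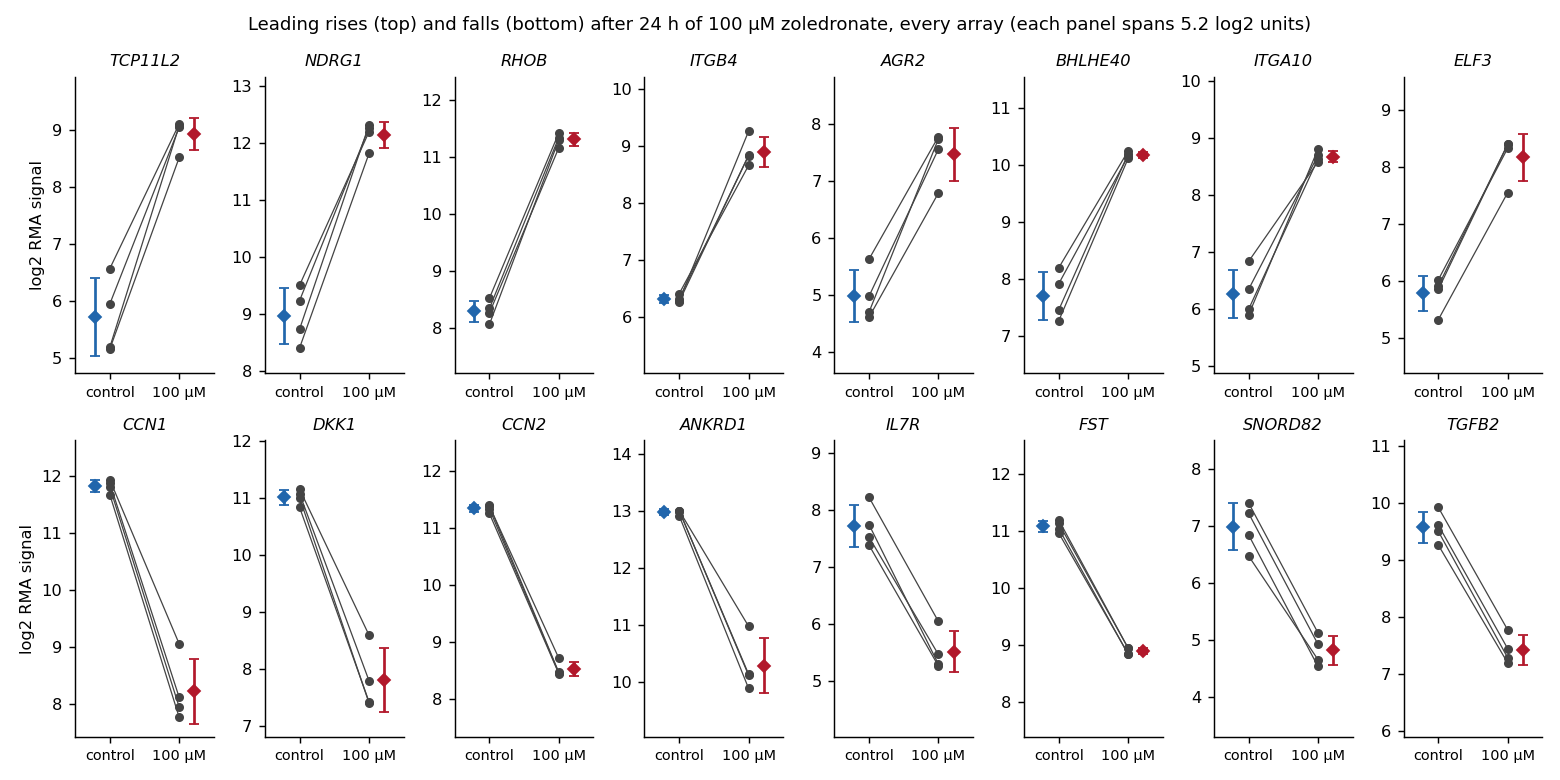
Log2 RMA signal (vertical axis) of the 8 leading rises (top) and 8 leading falls (bottom) in control and 100 µM zoledronate cells at 24 h; dots are single arrays, lines join arrays of the same replicate number, and diamonds with bars give the mean ± SD of n = 4. The groups do not overlap in any of the 16 panels, and each panel spans the same height, so that CCN1 (−3.60) and TCP11L2 (3.22) show the steepest lines.

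Of 22 measured YAP and TAZ targets, genes bound through TEAD factors in spread cells, 1 rose, 16 fell and 5 did not pass. Their median was −0.73 beside 0.01 over all genes, and it lay between −0.87 and −0.64 in the 4 pairs. Besides the genes above, F3, the coagulation starter tissue factor, fell by 1.76, AMOTL2, an angiomotin that holds YAP back, fell by 1.60, and CRIM1, a transmembrane BMP-binding protein gene, fell by 1.13. AXL, a receptor tyrosine kinase, fell by 0.73. NT5E, the ecto-enzyme CD73, rose by 0.46 ± 0.09. The list was drawn from genes known for YAP and TAZ, and its direction was known from earlier results of these data.

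The TEAD recognition letters CATTCC were looked up in the 250 bases before the annotated gene start of the RefSeq promoter table (assembly GRCh38.p14), on both strands. They occurred in 44.4% of the 18 windows of 16 of these targets, beside 10.4% of 20099 windows over 14239 genes. Over all fallen genes the share was 9.99% and over genes that did not pass 10.7%. Over genes that fell at least 2-fold it was 18.9% of 132 windows, and these genes include members of the list such as CCN2 and ANKRD1. CCN2 and ANKRD1 are shown because they hold the motif more than once and were among the largest falls, with the motif or its reverse complement GGAATG in capitals. The CCN2 window is chr6:131951373-131951622 on the minus strand, and its 3 matches begin 95, 104 and 169 bases before the start. The ANKRD1 window is chr10:90921088-90921337 on the minus strand, with matches 128 and 220 bases before the start.
CCN2: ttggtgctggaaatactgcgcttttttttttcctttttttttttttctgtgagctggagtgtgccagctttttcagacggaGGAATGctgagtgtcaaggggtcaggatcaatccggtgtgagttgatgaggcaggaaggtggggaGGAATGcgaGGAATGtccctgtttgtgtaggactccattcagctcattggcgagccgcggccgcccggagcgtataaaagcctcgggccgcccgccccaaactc
ANKRD1: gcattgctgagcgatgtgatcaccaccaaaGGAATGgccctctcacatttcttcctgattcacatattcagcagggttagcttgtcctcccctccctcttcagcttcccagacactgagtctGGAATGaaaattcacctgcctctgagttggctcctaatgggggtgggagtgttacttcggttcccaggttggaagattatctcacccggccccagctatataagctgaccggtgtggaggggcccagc
Such a match is a description of letters, and binding was not measured here. The share above counts every window of the list, and 8 windows hold a match. Besides CCN2 and ANKRD1 these are of AMOTL2, AXL and TGFB2, at −1.60, −0.73 and −2.15, and of FOXF2, NUAK2 and PTPN14, at −0.07, −0.02 and −0.17. Windows without a match include those of F3 (−1.76), FJX1 (−1.25), RBMS3 (−0.98), IGFBP3 (−0.15) and NT5E (0.46).

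The genes that carry the Hippo signal itself were examined next. Of 20 measured Hippo and TEAD genes 2 rose and 4 fell, while 14 did not pass, with a median of −0.08. Of all genes 15.3% rose and 16.6% fell. WWC1, the upstream Hippo scaffold KIBRA, fell by 1.15 (7.92, 7.70, 7.75 and 7.76 in the controls, 6.62, 6.83, 6.36 and 6.72 after zoledronate), and NF2, the scaffold merlin, by 0.88. LATS2, a kinase that restrains YAP, fell by 0.30. WWTR1, which encodes TAZ, rose by 0.79 ± 0.11 (adjusted p = 5.32e-06), while YAP1 differed by −0.03 (95% interval −0.15 to 0.09). The 4 TEAD genes lay between −0.17 for TEAD1 and 0.02 for TEAD4, and none passed.

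Single genes of prenylated GTPases were read next. RHOA, the main activator of stress fibres, read 12.79, 12.78, 12.77 and 12.74 against 12.37, 12.29, 12.38 and 12.33, a rise of 0.43 ± 0.06 (adjusted p = 4.92e-06). RHOC, a close relative tied to invasion, read 10.65, 10.59, 10.68 and 10.78 against 9.89, 9.83, 9.83 and 9.89, a rise of 0.82 ± 0.09 (adjusted p = 9.91e-08). In both genes the groups were separate, with far smaller rises than that of RHOB. RHOJ rose by 0.53, and RND3, an atypical GTPase that opposes RHOA, fell by 0.99. CDC42 (−0.10, interval −0.31 to 0.10) and RAC1 (0.06, interval −0.04 to 0.17), which drive filopodia and lamellipodia, did not pass. Of 12 Ras, Rap and Ral genes 3 rose and 2 fell, and 7 did not pass, where 15.3% and 16.6% of all genes rose and fell. RRAS, an integrin-activating relative of Ras, rose by 1.04 ± 0.11 (adjusted p = 1.57e-07), and the mTORC1 activator RHEB fell by 0.23.

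RHOB had the largest rise of the GTPase genes named here, so its window is shown with the letters CCAAT, or ATTGG on the other strand, in capitals. The window is chr2:20446824-20447073 on the plus strand (RefSeq, GRCh38.p14), and the 2 matches begin 66 and 115 bases before the start.
RHOB: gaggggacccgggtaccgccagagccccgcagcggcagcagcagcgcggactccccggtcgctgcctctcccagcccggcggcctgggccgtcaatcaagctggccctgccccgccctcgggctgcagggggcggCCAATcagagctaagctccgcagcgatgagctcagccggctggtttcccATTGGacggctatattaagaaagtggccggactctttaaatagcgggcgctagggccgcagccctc
The same letters occurred in 32.6% of all 20099 windows.

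Genes of the enzymes that attach the anchors were counted as a list. Of 12 measured prenylation enzymes and chaperones 2 rose, 5 fell and 5 did not pass, with a median of −0.15. RABGGTB, the beta subunit of the transferase that prenylates Rab proteins, read 10.34, 10.37, 10.36 and 10.02 against 10.88, 10.80, 10.78 and 10.60 and fell by 0.49. CHML, an escort protein of Rab prenylation, fell by 0.56, and ZMPSTE24, the protease that trims prenylated lamin A, by 0.45. PGGT1B, the beta subunit of an enzyme that attaches geranylgeranyl groups, fell by 0.25. PDE6D, a carrier of prenylated proteins, rose by 0.48 and RABGGTA, the partner subunit of RABGGTB, by 0.24.

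The RNA of the drug's direct target did not pass the test. FDPS read 9.62, 9.60, 9.55 and 9.55 on the treated and 9.60, 9.57, 9.71 and 9.76 on the control arrays, a difference of −0.08 ± 0.10 (adjusted p = 0.6), with a 95% interval from −0.29 to 0.12. GGPS1, the next enzyme towards geranylgeranyl groups, read 7.52, 7.36, 7.48 and 7.32 against 7.05, 6.66, 6.96 and 7.14, a rise of 0.47 ± 0.16 (adjusted p = 0.0321). The FDPS arrays overlapped between groups and those of GGPS1 did not, but without replicate 1, 2 or 3 GGPS1 did not pass (adjusted p = 0.083, 0.15 and 0.097, limma). Of 16 measured enzymes of the mevalonate and sterol pathway 8 rose, 0 fell and 8 did not pass, with a median of 0.30 that lay between 0.09 and 0.55 in the pairs. HMGCS1, which makes HMG-CoA at the pathway's entry, rose by 0.82 ± 0.16 (adjusted p = 0.000346). MVK and MVD, the kinase and the decarboxylase of mevalonate, rose by 0.43 and 0.35. LSS, which closes the sterol rings, rose by 0.63, and TM7SF2, a sterol reductase, by 0.87.

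Of 16 measured sterol regulators and lipid supply genes 10 rose and 2 fell, while 4 did not pass, with a median of 0.29. ACSS2, which makes acetyl-CoA from acetate, rose by 1.14 ± 0.09 (adjusted p = 2.49e-09), INSIG2, which holds SREBP in the endoplasmic reticulum, by 0.91, and LPIN1, a phosphatidate phosphatase, by 0.73. SREBF1, the gene of the fatty acid arm's factor, rose by 0.63 and the sterol carrier gene STARD4 by 0.61. TMEM97, a sterol-regulated receptor gene, fell by 0.72, and SCAP, the escort of SREBP, by 0.16. Without replicate 1 SCAP was at −0.1 and did not pass (adjusted p = 0.3, limma). Of 9 LXR and efflux genes 2 rose and 1 fell, where 15.3% and 16.6% of all genes did. NR1H3, which encodes LXR alpha, rose by 0.66 and SMPDL3A, a phosphodiesterase gene, by 0.38, while the cholesterol exporter ABCA1 fell by 0.30. Among 5 transport genes the phosphate carrier SLC20A1 rose by 0.70 and SLC20A2 fell by 0.45. SLC37A3, part of the route by which bisphosphonates leave lysosomes, differed by 0.05 (interval −0.06 to 0.16) and did not pass.

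Genes that act on GTPases and actin included rises and falls. NET1, an exchange factor that loads RHOA, rose by 1.23 ± 0.08 (adjusted p = 2.42e-10), and ARHGAP5, a GTPase activator, by 0.79. The exchange factor ARHGEF28 fell by 1.18, and the activators ARHGAP18 and ARHGAP29 by 0.72 and 0.57. Among 21 SRF and actin genes 3 rose and 10 fell, with a median of −0.05. CNN2 and CNN3, calponins that bind actin, fell by 0.73 and 0.70, FHL2 by 0.55, and SRF itself by 0.45 (9.21, 9.20, 9.17 and 9.26 against 9.70, 9.69, 9.64 and 9.63). PDLIM7, a LIM protein of stress fibres, rose by 0.63, TGFB1I1, the focal adhesion protein Hic-5, by 0.46, and the tropomyosin TPM2 by 0.26. Of 15 focal adhesion and caveola genes 4 rose and 3 fell: the caveolin gene CAV1 fell by 0.51 and CAVIN3 rose by 0.88. The CArG box, the letters that SRF binds, occurred in 27.8% of 36 windows of the SRF and actin list beside 1.19% of all windows and 1.18% of those of all fallen genes.

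Feedback genes downstream of Ras and ERK rose in 9 of 17 cases and fell in 3, with a median of 0.41. DUSP5, a nuclear ERK phosphatase, read 10.24, 10.67, 10.55 and 10.62 against 9.63, 9.78, 9.87 and 9.82, a rise of 0.75 ± 0.09 (adjusted p = 4.95e-07). SPRY4, a Sprouty inhibitor of receptor signalling, rose by 0.82, DUSP4 by 0.60, IER3 by 0.97 and the ETS factor ETV1 by 1.01. DUSP6, the cytoplasmic ERK phosphatase, differed by 0.10 (interval −0.03 to 0.23) and did not pass. The AP-1 gene FOSL1, the ephrin receptor EPHA2 and the G1 cyclin CCND1 fell by 0.45, 0.33 and 0.24. Of 15 immediate early factors 6 rose and 0 fell, among them JUND at 0.78, JUNB at 0.74 and NR4A2 at 0.83. In the EGF receptor family 5 of 12 genes rose and 2 fell. HBEGF, a membrane-bound ligand, read 8.92, 8.60, 8.79 and 8.67 against 10.43, 10.09, 10.11 and 10.11 and fell by 1.44, while the ligand TGFA rose by 1.03 and ERRFI1, a feedback inhibitor of the receptor, by 0.78. EGFR itself differed by −0.19 (unadjusted 95% interval −0.33 to −0.04) and just missed the threshold (adjusted p = 0.0504, limma). It passed without replicate 4, at −0.23 (adjusted p = 0.044), and with median centring, without the dimmest genes, with an intensity trend and with array weights, and over all alternatives its adjusted p lay between 0.0079 and 0.53. After quantile normalisation it was −0.11 (adjusted p = 0.27).

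MYC, the growth-promoting transcription factor, read 8.95, 9.01, 8.91 and 8.81 on the treated and 10.53, 10.62, 10.56 and 10.58 on the control arrays, a difference of −1.65 ± 0.10 (adjusted p = 1.02e-10). All treated arrays lay below all controls. MXD1, MXD4 and MXI1, which compete with MYC for its partner MAX and repress its targets, rose by 0.83, 0.70 and 0.41, and MNT, another repressor of the network, by 0.36. MAX did not pass (−0.16), and of 13 network genes 4 rose and 2 fell.

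Ribosome biogenesis genes fell almost without exception. Of 25 measured members 24 fell, 0 rose and 1, UBTF, did not pass, with a median of −0.61 beside 0.01 over all genes. DKC1, the pseudouridine synthase of H/ACA particles, read 9.19, 8.98, 8.83 and 8.84 against 10.12, 10.12, 9.96 and 9.97 and fell by 1.09. WDR43, a processing factor, read 10.09, 10.01, 10.11 and 10.14 against 11.07, 11.09, 11.02 and 10.96 and fell by 0.94. For both, the highest treated array lay below the lowest control. URB2 and UTP20, factors of early ribosome assembly, fell by 1.14 and 1.04, and NOP58, a core protein of C/D particles, fell by 0.74. Of 66 measured ribosomal protein genes 25 fell and 1 rose, with a median of −0.12.

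Purine, pyrimidine and one-carbon genes shared that direction, with 19 of 22 members fallen, 0 risen and a median of −0.50. PPAT, the first enzyme of purine synthesis, read 8.44, 8.35, 8.32 and 8.22 against 9.19, 9.28, 9.26 and 9.24 and fell by 0.91. CTPS1, which makes CTP, fell by 0.96, the mitochondrial folate enzyme MTHFD2 by 1.1 and CAD, which opens pyrimidine synthesis, by 0.70. Aminoacyl-tRNA synthetases fell in 13 of 19 cases with a median of −0.36. FARSB, for phenylalanine, fell by 0.84 and VARS1, for valine, by 0.43, while QARS1, for glutamine, rose by 0.16.

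Small nucleolar RNAs guide the chemical modification of ribosomal RNA, and most are cut from introns of host genes. Of 192 small nucleolar and Cajal body RNA genes, grouped by symbol after their values were seen, 92 fell, 4 rose and 96 did not pass, with a median of −0.25. SNORD82 read 4.93, 4.54, 5.13 and 4.66 on the treated and 7.23, 6.85, 7.41 and 6.48 on the control arrays, a difference of −2.18 ± 0.14 (adjusted p = 1.49e-10). SNORD20 read 4.56, 3.92, 4.00 and 4.00 against 6.39, 6.18, 6.29 and 5.88, a difference of −2.06 ± 0.21 (adjusted p = 7.59e-08). No array of one group reached the range of the other in either gene. Box C/D genes, which guide methylation, fell in 57 of 115 cases (49.6%), and box H/ACA genes, which guide pseudouridylation, in 34 of 61 (55.7%). Over all genes 16.6% fell. Of Cajal body genes 1 of 16 fell (6.25%) and 2 rose, and that class was not tested against the others.

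The RefSeq table (GRCh38.p14) places many of them inside host genes, and the hosts named here were chosen after their values were seen. All 7 measured genes inside GAS5, a non-coding growth arrest transcript, fell, with a median of −1.71, and all 3 inside NCL, the nucleolin gene, with a median of −2.06. Of 16 inside measured ribosomal protein genes 15 fell, with a median of −1.13. None of 39 inside SNHG14, an imprinted transcript, passed (limma), with 0 at an unadjusted p under 0.05, and none of 6 inside MEG8, with 0. The mean signals of those members over the 8 arrays ran from 1.89 to 5.11 in SNHG14 and from 2.43 to 3.32 in MEG8. The lowest value on these arrays was 1.44, and whether such signals left room for a measurable fall was not tested. The hosts' own differences were set beside those of all 88 small RNA genes that lie in a single measured host, fallen or not. Their median was −0.29 and that of their 67 hosts −0.19, and 45 of the small RNA genes and 36 of the hosts fell. The small RNA gene had the lower difference in 52 pairs, as in SNORD43 at −1.78 in RPL3 at −0.15 or SNORD37 at −1.34 in EEF2 at −0.02, and the host in 36, as in SNORA71C at −0.01 in SNHG17 at −0.92. The small RNA and its host have different probes, RNA was taken up on a spin column per the labels' protocols, and how such short transcripts were recovered was not tested.

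**Figure D3:**
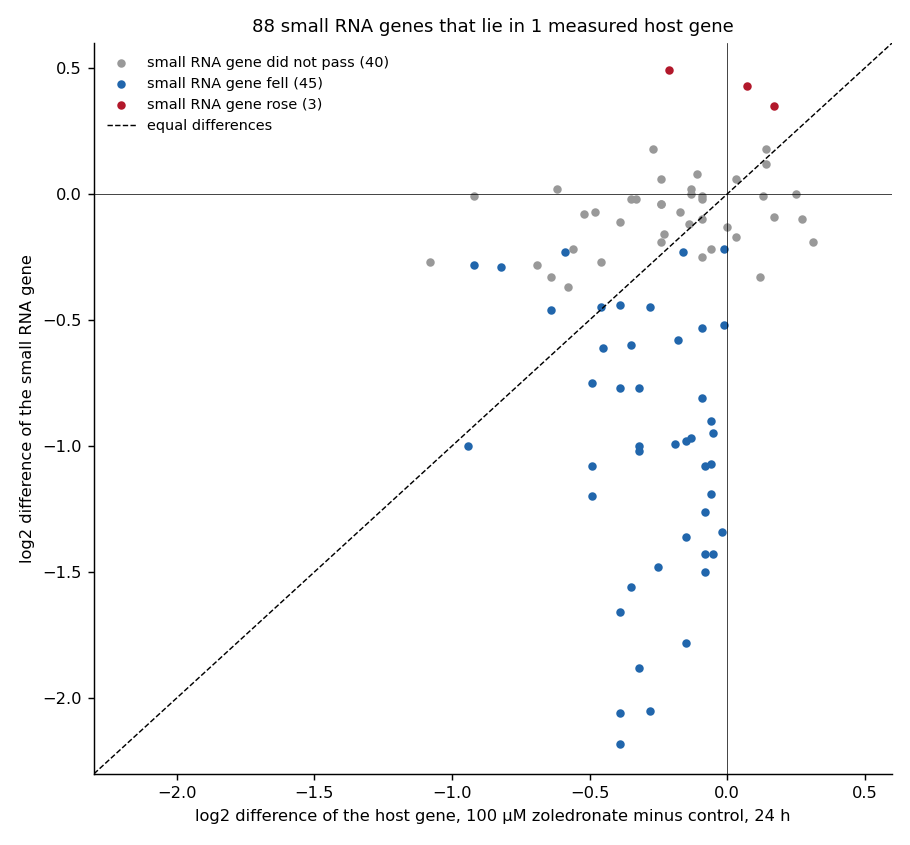
Log2 difference (100 µM minus control) of 88 small nucleolar and Cajal body RNA genes (vertical axis) against that of the host gene each lies in (horizontal axis), with one point per pair; blue points are small RNA genes that fell, red ones rose and grey ones did not pass, and the dashed line marks equal differences. In 52 pairs the point lies below the line and in 36 above it, and the lowest point is SNORD82 (−2.18) in NCL (−0.39).

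Genes of DNA replication fell nearly throughout. Of 29 measured members 27 fell, 0 rose, and POLA2 and LIG1 did not pass, with a median of −0.62 that lay between −0.76 and −0.48 in the pairs. MCM6, a subunit of the replicative helicase, read 9.62, 9.37, 9.33 and 9.31 against 10.24, 10.20, 10.20 and 10.26 and fell by 0.82. PRIM1, the primase that starts new strands, read 9.42, 9.31, 9.39 and 9.06 against 10.12, 10.09, 10.05 and 10.19 and fell by 0.82. Both showed groups without overlap. RFC3, of the clamp loader, fell by 0.75, MCM3 by 0.68 and MCM7 by 0.49. The E2F letters TTTGGCGC or TTTCGCGC, on either strand, occurred in 16.1% of 31 windows of this list beside 1.24% of all windows and 2.04% of those of all fallen genes.

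G1 and S regulators fell in 13 of 23 cases and rose in 2. CDC25A, the phosphatase that starts S phase, fell by 1.35, the kinase gene CDK4 by 0.38, and E2F4 and E2F6 by 0.42 and 0.57. RBL2, which encodes the pocket protein p130 of resting cells, rose by 0.59, and CCNA1, an A-type cyclin, by 1.29. CCNE2 differed by −0.58 ± 0.25 and did not pass. Among 7 CDK inhibitor genes 4 rose: CDKN1A (p21) by 0.51, CDKN1B (p27) by 0.44, CDKN1C (p57) by 0.27 and CDKN2D (p19) by 0.60. CDKN2D read 8.79, 8.76, 8.79 and 8.87 against 8.12, 8.19, 8.30 and 8.22. CDKN2B did not pass (0.07), and CDKN3, a cell cycle phosphatase listed with them, fell by 0.59. DNA repair genes fell in 10 of 13 cases, led by UNG, which removes uracil from DNA, at −0.90 and XRCC2, of homologous recombination, at −1.07.

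Mitosis genes were counted as well, with 10 of 33 fallen, 0 risen, 23 not passed and a median of −0.31. KIF23, a kinesin of the central spindle, fell by 0.73, CDC20, an activator of the anaphase-promoting complex, by 0.70, and AURKB, the chromosomal passenger kinase, by 0.63. The proliferation marker MKI67 differed by −0.44 ± 0.20 and did not pass. The letters CCAAT occurred in 86.7% of 30 windows of mitosis genes beside 32.6% of all and 35.4% of those of all fallen genes. Histone cluster genes, core and linker, whose transcripts are made in S phase, fell in 12 of 16 cases with a median of −0.45. H2BC14 had the largest difference at −1.58, and the next was H3C10 at −0.68. Histone genes are near-identical copies, so the signal of single members is uncertain.

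Among 173 miRNA genes, measured by probe sets named for the hairpin gene and not for the mature miRNA, 10 passed, 6 risen and 4 fallen. Only 2.31% of the miRNA genes fell, beside 16.6% of all genes, and 32.0% of all genes passed in either direction. MIR106B, MIR93 and MIR25, which lie inside MCM7, differed by −0.34, −0.71 and −0.23, and their host by −0.49. MIR93 read 5.96, 5.64, 5.80 and 5.75 on the treated and 6.53, 6.64, 6.40 and 6.43 on the control arrays. The mature products of the fallen genes are shown because miR-106b and miR-93 share a seed, bases 2 to 8 in capitals, while miR-25 and miR-15b do not (RefSeq, GRCh38.p14).
miR-106b-5p: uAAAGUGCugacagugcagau
miR-93-5p: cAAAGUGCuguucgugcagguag
miR-25-3p: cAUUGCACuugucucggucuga
miR-15b-5p: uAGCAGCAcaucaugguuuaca
MIR15B fell by 0.53. MIR21, the gene of a miRNA abundant in many cancers, rose by 0.87, while VMP1, the gene it overlaps, differed by 0.02. MIR99A and MIR99B, whose 5p products share a seed with each other, rose by 0.35 and 0.24. MIR99AHG, the gene in which MIR99A lies, went the other way, at −0.53.
miR-21-5p: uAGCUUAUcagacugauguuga
miR-99a-5p: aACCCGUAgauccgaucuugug
miR-99b-5p: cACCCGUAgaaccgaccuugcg

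Of 13 FOXO-linked genes 8 rose and 0 fell, and the other 5 did not pass; the list's median was 0.56. TSC22D3 read 9.20, 9.01, 9.27 and 9.16 against 6.73, 6.52, 6.95 and 7.11. CCNG2, a cyclin of resting cells, read 8.79, 9.18, 9.05 and 8.99 against 7.38, 7.43, 7.69 and 7.76, a rise of 1.44 ± 0.16 (adjusted p = 1.84e-07). In both genes the groups were well apart. KLHL24 rose by 1.40, BCL6, a repressor, by 0.64, FOXO4 by 0.66, and TXNIP, which restrains glucose uptake, by 0.79. Of 17 p53-linked genes 6 rose and 2 fell, with TP53INP1 at 1.66, BTG1 at 0.89 and RRM2B at 0.45, while PLK2, a polo-like kinase, fell by 1.81 and AEN, an exonuclease gene, by 0.69. Among 20 BCL2 family and caspase genes 3 rose and 5 fell, where 15.3% and 16.6% of all genes did. The pro-death genes BMF and BCL2L11 (BIM) differed by 0.73 and −0.56, and the survival gene BCL2L1 (BCL-XL) by −0.53.

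Kruppel-like factors, zinc finger transcription factors of differentiation and vessel walls, rose in 7 of 14 cases and fell in 3, with a median of 0.30. KLF3 read 8.81, 9.14, 8.98 and 9.05 against 7.07, 7.18, 7.19 and 7.38, a rise of 1.79 ± 0.12 (adjusted p = 1.49e-10). KLF2, which statins induce in endothelial cells, read 10.15, 10.13, 10.15 and 10.12 against 9.04, 8.95, 9.03 and 8.86, a rise of 1.17 ± 0.11 (adjusted p = 3.56e-08). KLF7, KLF13, KLF6 and KLF9 rose by 1.65, 1.34, 1.21 and 0.94, and KLF4 by 0.38. A second, dimmer KLF13 probe set differed by only 0.21. KLF5, KLF15 and KLF16 fell by 0.28, 0.43 and 0.39.

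Targets of hypoxia-inducible factors (HIF) were counted, and the labels name no low-oxygen treatment. Of 25 measured targets 19 rose, 1 fell and 5 did not pass, with a median of 0.93 that lay between 0.66 and 1.14 in the pairs. BNIP3, a mitophagy receptor, read 11.42, 11.84, 11.75 and 11.80 against 10.41, 10.31, 10.45 and 10.42, a rise of 1.30 ± 0.09 (adjusted p = 1.49e-10). P4HA1, a prolyl hydroxylase of collagen, read 10.10, 10.44, 10.42 and 10.39 against 8.85, 8.58, 8.82 and 9.02, a rise of 1.52 ± 0.10 (adjusted p = 2.2e-10). In both genes every treated array lay above every control array. PFKFB4, which raises glycolytic flux, rose by 1.67, BNIP3L by 1.16, LOX, which crosslinks collagen, by 1.57, and VEGFA, the vessel growth factor, by 0.93. ADM, the peptide hormone adrenomedullin, was at −0.29 (adjusted p = 0.0314, limma), and without replicate 1 at −0.16 (adjusted p = 0.31). It did not pass without the replicate block either (adjusted p = 0.52). ANGPTL4 and the glucose transporter SLC2A1 did not pass (0.08 and 0.06). CA9 is not analysed here.

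The core letters of the HIF element, ACGTG, were counted on both strands and can lie within CACGTG, which other factors bind. They occurred in 60.9% of 23 windows over 19 HIF targets and in 20.3% of all windows. The list was drawn from genes known for HIF, so this share describes the list and not the response to zoledronate. Over all risen genes the share was 20.5%, over those risen at least 2-fold 19.2% and over all fallen genes 24.4%. BHLHE40 and ANKRD37, a small ankyrin-repeat gene that rose by 1.00, are shown because they rose and hold the letters more than once, with ACGTG or CACGT in capitals. Where both orders overlap, the capitals run on as CACGTG. The BHLHE40 window is chr3:4979187-4979436 on the plus strand and that of ANKRD37 is chr4:185396591-185396840 on the plus strand (RefSeq, GRCh38.p14).
BHLHE40: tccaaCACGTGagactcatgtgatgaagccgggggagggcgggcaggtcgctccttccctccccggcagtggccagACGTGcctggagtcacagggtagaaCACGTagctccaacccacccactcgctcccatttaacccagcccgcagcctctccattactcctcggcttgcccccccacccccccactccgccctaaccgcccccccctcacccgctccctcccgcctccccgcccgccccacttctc
ANKRD37: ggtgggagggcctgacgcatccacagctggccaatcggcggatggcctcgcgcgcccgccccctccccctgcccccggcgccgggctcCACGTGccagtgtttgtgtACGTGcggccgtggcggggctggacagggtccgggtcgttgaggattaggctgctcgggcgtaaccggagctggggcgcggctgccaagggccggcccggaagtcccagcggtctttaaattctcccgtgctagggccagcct
BHLHE40 read 10.11, 10.19, 10.15 and 10.24 on the treated arrays, within 0.13 of each other, and 7.26, 7.45, 7.91 and 8.19 on the controls. ANKRD37 read 7.73, 7.98, 7.84 and 7.74 against 6.68, 6.69, 6.78 and 7.16.

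Oxygen-sensing genes were among the risen ones: EPAS1, which encodes HIF2 alpha, read 9.36, 9.27, 9.14 and 9.25 against 7.88, 7.58, 7.56 and 7.93, a rise of 1.51 ± 0.15 (adjusted p = 5.28e-08). HIF1A rose by 0.41 and its partner ARNT by 0.52, and the oxygen sensors EGLN1 and EGLN3, themselves HIF targets, by 0.54 and 0.63. Of 19 glycolysis and lactate genes 13 rose and 1 fell. PDK1, which keeps pyruvate out of mitochondria, rose by 1.28 ± 0.09 (adjusted p = 2.55e-10), the enolase ENO2 by 1.37 and the aldolase ALDOC by 1.63, and LDHB, which favours pyruvate, fell by 0.28. Respiratory chain genes had a median of −0.07: of 23, 1 rose and 5 fell, with values from −0.27 for CYC1 to 0.21 for SDHC. Of 17 clock genes 6 rose and 2 fell: the repressor CRY1 fell by 0.68, and NFIL3 and BHLHE41 rose by 0.87 and 0.61.

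**Figure D4:**
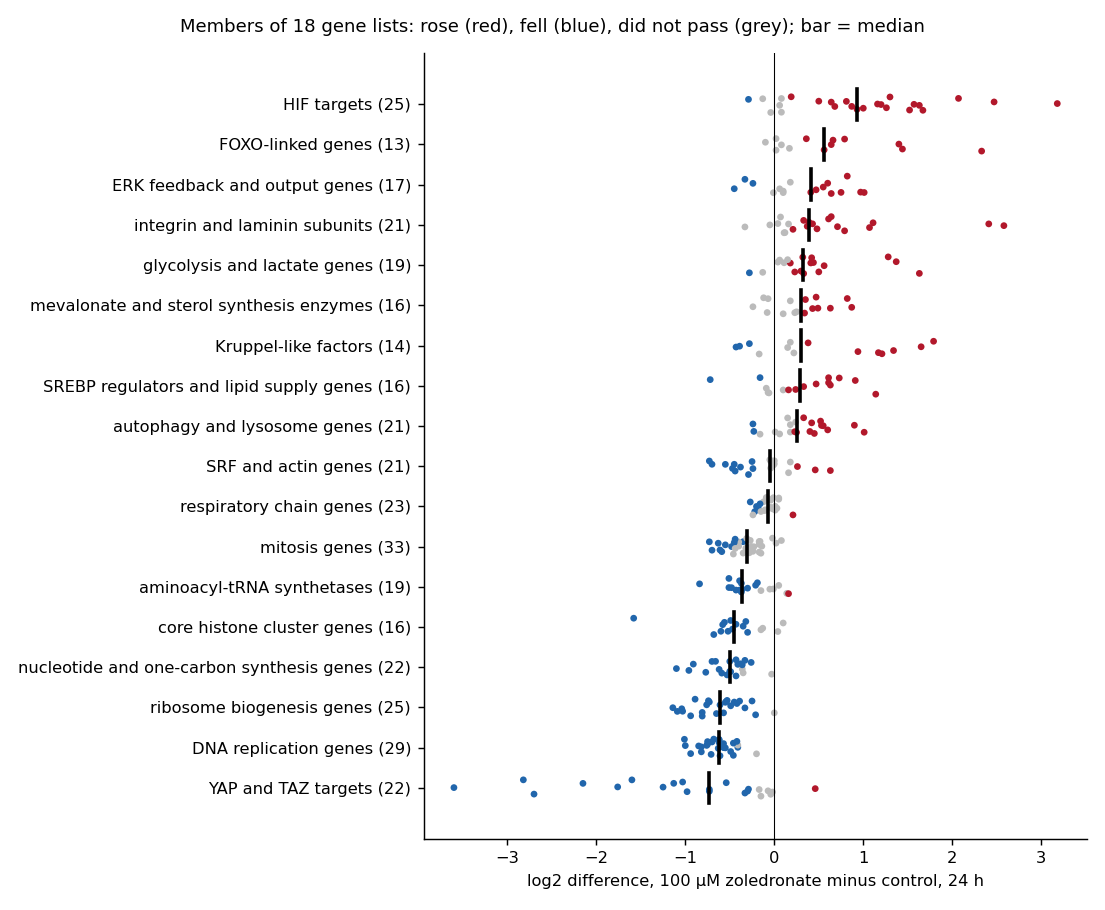
Log2 difference (100 µM minus control at 24 h, horizontal axis) of each measured member of 18 gene lists (vertical axis, number measured in brackets); red dots rose, blue dots fell, grey dots did not pass and the black bar is the list's median. HIF targets (median 0.93) stand at the top, and DNA replication genes (−0.62) and YAP and TAZ targets (−0.73) at the bottom.

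Stress pathways did not move as one. Of 24 integrated stress and unfolded protein genes 2 rose and 10 fell. SLC7A5 and SLC3A2, the 2 chains of a leucine transporter, fell by 1.29 and 0.97, and PSAT1, of serine synthesis, by 0.91. VLDLR, a lipoprotein receptor, read 8.03, 8.55, 8.54 and 8.46 against 6.13, 6.17, 6.43 and 6.83, a rise of 2.01 ± 0.17 (adjusted p = 4.96e-09), and EIF2AK3, the kinase PERK, rose by 0.44. Among 8 heat shock genes 2 rose and 5 fell, with the mitochondrial chaperones HSPD1 and HSPE1 at −0.44 and −0.56, and the co-chaperone BAG3 rose by 0.53. Of 19 NRF2-linked genes 6 rose and 2 fell, and their median was 0.00. The 3 AKR1C genes led them, with AKR1C1 at 9.13, 8.66, 8.36 and 8.43 against 6.91, 6.17, 6.31 and 6.70, while SRXN1, which repairs peroxiredoxins, fell by 0.35. Autophagy and lysosome genes rose in 12 of 21 cases and fell in 2. CTSD, a lysosomal protease, rose by 1.01 ± 0.09 (adjusted p = 1.14e-08), GABARAPL1, of the autophagosome membrane, by 0.90, and the starter kinase ULK1 by 0.53, while ATG5 and the lysosomal channel MCOLN1 fell by 0.24 and 0.23.

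Genes of adhesion to the matrix and of the matrix itself were counted by class. Of 21 integrin and laminin genes 14 rose and 0 fell, while 7 did not pass, with a median of 0.39. ITGA5, the fibronectin receptor's alpha chain, read 9.63, 9.83, 9.82 and 9.90 against 8.99, 8.92, 9.03 and 9.09, a rise of 0.79 ± 0.09 (adjusted p = 1.67e-07). LAMA5 and LAMB2, laminin chains of basement membranes, rose by 1.11 and 0.71. Collagen and matrix genes were divided, 8 of 22 risen and 3 fallen: COL6A1 and the fibronectin gene FN1 rose by 1.36 and 1.18, while COL8A1 fell by 1.25, COL12A1 fell by 1.05 and THBS1, which encodes thrombospondin 1, fell by 1.77. Proteases and their inhibitors rose in 9 of 19 cases and fell in 4. PLAT, the tissue plasminogen activator, rose by 1.51, the membrane protease MMP14 by 0.87, and TIMP1, which inhibits such proteases, by 0.90, while PLAU, the urokinase gene, fell by 0.68. MMP1 rose by 0.22. In the TGF-beta and BMP pathway 11 of 23 genes rose and 3 fell, with TGFBR1 at 0.77, TGFB1 at 0.75 and LTBP1, which stores the latent ligand, at 1.22.

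Epithelial and mesenchymal genes changed in both directions. Of 23 epithelial genes 8 rose and 3 fell, and of 12 mesenchymal genes 4 rose and 2 fell. KRT19, a keratin of simple epithelia, read 10.30, 10.80, 10.85 and 10.67 against 8.67, 9.07, 9.23 and 9.44, a rise of 1.55 ± 0.15 (adjusted p = 4.91e-08), and CLDN7, a tight junction gene, rose by 1.35. SNAI2, a repressor of epithelial genes, read 7.53, 6.77, 6.49 and 6.52 against 8.83, 8.33, 7.91 and 8.21 and fell by 1.49. KRT80, KRT7 and CLDN1 fell by 0.90, 0.62 and 0.67, and CDH11, a mesenchymal cadherin, rose by 0.89. CDH1, the epithelial cadherin, differed by 0.07 (interval −0.16 to 0.31) and VIM by 0.14 (interval −0.02 to 0.29), and neither passed. Among breast luminal genes ERBB2 rose by 0.46, and the hormone receptor genes ESR1 and PGR did not pass (0.17 and 0.10).

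Mediators of bone metastasis, for which this line is a model, rose in 7 of 18 cases and fell in 5. FST read 8.95, 8.95, 8.84 and 8.85 against 11.14, 11.20, 11.05 and 10.97, with every treated array at least 2 log2 units below every control. CSF1, which supports osteoclasts, read 9.20, 10.01, 10.01 and 10.15 against 8.35, 8.09, 8.17 and 8.45, a rise of 1.58 ± 0.15 (adjusted p = 3.6e-08), and LOX, counted above, also belongs here. IL11, an osteoclast-promoting cytokine, fell by 0.93. CXCR4, the receptor that guides cells to bone, differed by −0.16 (interval −0.45 to 0.12). In the Wnt pathway 7 of 23 genes rose and 4 fell: next to DKK1 the nuclear factor LEF1 fell by 0.98, and the co-receptor LRP5 rose by 0.88. Notch genes rose in 4 of 15 cases and fell in 1, and 10 did not pass, where 15.3% and 16.6% of all genes rose and fell. The modifier LFNG was at 1.20, the target HEY1 at 0.96 and the ligand JAG1 at 0.67. Semaphorins and their receptors rose in 7 of 17 cases and fell in 3, between SEMA3E at −1.1 and PLXNA2 at 1.28.

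Immune genes held both rises and falls. CD274, which encodes the checkpoint ligand PD-L1, read 6.04, 5.92, 5.99 and 5.72 against 7.80, 7.89, 7.85 and 7.76, a difference of −1.91 ± 0.13 (adjusted p = 2.94e-10), and PDCD1LG2, its relative PD-L2, fell by 0.91. Both genes showed groups without overlap. BTN3A1, the butyrophilin through which gamma delta T cells sense phosphoantigens, differed by 0.26 ± 0.11 (adjusted p = 0.0761), and BTN3A3 rose by 0.35. Of 22 interferon and antigen presentation genes 10 rose and 1, PSMB8, fell. IRF9, a subunit of the interferon-activated factor, rose by 0.89, OAS2 by 0.82 and IRF1 by 0.53. Cytokine and NF-kB genes rose in 7 of 23 cases and fell in 3, with NFKB2 at 0.57 and NFKBIA, the inhibitor, at 0.54. Among 7 drug transporters ABCC3 rose by 0.46 and ABCC4 fell by 0.37, and 5 did not pass. Of all genes 15.3% rose and 16.6% fell.

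Markers of other cell types were examined as a check on the cultures. Of 10 blood cell markers 3 rose, 0 fell and 7 did not pass, and the mean over the list lay between 5.62 and 5.78 on the treated and 5.41 and 5.46 on the control arrays, so that every treated array was above every control array. LYZ, the lysozyme gene, read 5.42, 6.19, 6.07 and 5.82 against 4.06, 3.60, 4.06 and 4.07, a rise of 1.93 ± 0.18 (adjusted p = 1.8e-08), and the lysosomal CD68 and the receptor CD14 rose by 0.56 and 0.42. PTPRC, which marks all white cells, differed by −0.05, and the T cell genes CD3E and CD3G by −0.01 and −0.21. Of 13 fibroblast and endothelial markers 2 rose and 1 fell: PECAM1 rose by 1.30 and PDGFRB by 0.48, while KDR fell by 0.51. CDH5, which defines endothelium, differed by −0.01. All arrays are of MDA-MB-231 cells by the description of the study. A change in the number of cells of a kind and a change in RNA per cell cannot be told apart in bulk samples. The part of these markers in the other results was not tested.

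The same effects were compared with those of 30 µM zoledronate and 2 µM fluvastatin by testing the difference between effects. Each effect was taken against its own controls, but the 24 h arrays of both other treatments belong to lot I and share their controls with each other, so dose or agent and lot cannot be told apart there. At 24 h of 30 µM zoledronate no gene passed (limma, with 864 of 18417 at an unadjusted p under 0.05), and at 100 µM the effect was higher for 1694 genes (9.20%) and lower for 2052 (11.1%), a split that was 2047 and 1604 after quantile normalisation of the 40 arrays. At 48 h of 30 µM, from lot II with its own controls, 1397 genes passed (7.59%), of which 582 (3.16%) rose and 815 (4.43%) fell. The effect of 100 µM differed from it for 1515 genes (8.23%), higher for 720 (3.91%) and lower for 795 (4.32%). Dose and time differ together in that comparison. Against fluvastatin at 24 h, which raised 1236 genes (6.71%) and lowered 694 (3.77%), the 100 µM effect was higher for 299 (1.62%) and lower for 766 (4.16%). That split moved with the scaling: it was 465 higher and 451 lower after quantile normalisation, and 188 and 555 after centring each array on its median. Without the replicate block the differences passed for 2065 genes in place of 3746 (20.3%) against 30 µM at 24 h, for 514 in place of 1515 against 30 µM at 48 h and for 248 in place of 1065 (5.78%) against fluvastatin, and with array weights for 2918 against 30 µM at 48 h and 3132 against fluvastatin. The difference from 30 µM at 48 h passed for 516 genes with the lot II arrays alone, a fit chosen after seeing the data, and for 860 without replicate 2. That from fluvastatin passed for 673, 588 and 632 without replicate 2, 3 and 4.

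Genes that passed at 48 h of 30 µM mostly passed here in the same direction. Of those 1397 genes 1161 passed in both, which is 83.1% of that comparison's calls and 19.7% of the calls at 100 µM, and 4 of them had opposite signs. Of all genes 32.0% passed at 100 µM. The size was larger at 100 µM in 963 of the 1161, with a median of 0.54 against 0.34. The difference between the effects passed for 299 of the 1161. The opposite 4 were DCTN4, NIT1 and SCARNA10, at 0.27, 0.27 and 0.49 after 100 µM and −0.26, −0.24 and −0.40 at 48 h of 30 µM, and SOD2, the mitochondrial superoxide dismutase gene, at −0.22 and 0.28. The difference between effects passed for each of the 4, with adjusted p of 0.00222, 0.0037, 0.00131 and 0.00791 (limma). These genes were chosen because they passed with opposite signs, so that test could hardly fail and adds no support. Without replicate 2, 3 or 4 SOD2 did not pass after 100 µM (adjusted p = 0.12, 0.19 and 0.079, limma). Without replicate 3 SCARNA10 was at 0.3 after 100 µM. The calls of fluvastatin at 24 h overlapped to a like extent. Of them 1629 (84.4%) passed at 100 µM too, 3 with opposite signs. The size was larger at 100 µM in 1397 of the 1629, and the difference between the effects passed for 324.

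The largest differences between treatments included many of the genes already named. CCN1 differed from its control by −3.60 at 100 µM, −0.03 at 30 µM and 24 h, −0.59 at 30 µM and 48 h, and −1.03 with fluvastatin. DKK1 showed −3.21, 0.02, −0.63 and −1.01 in that order, CCN2 −2.82, −0.10, −0.51 and −0.82, and ANKRD1 −2.70, 0.02, −0.41 and −0.65. All 3 tests of the difference passed for each of these genes. On the rising side NDRG1 showed 3.18, 0.14, 1.54 and 1.28, RHOB 3.01, 0.37, 1.11 and 1.74, and TCP11L2 3.22, 0.38, 0.70 and 1.72. TNFRSF10D, a decoy receptor for the death ligand TRAIL, rose by 1.99 and showed 0.42 with fluvastatin, and TMEM45A, a transmembrane protein gene, 1.32 and −0.07. SNORD20 showed −2.06, 0.41, −0.33 and 0.08.

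Gene groups differed in how they compared. Small nucleolar and Cajal body RNA genes had a median of −0.25 at 100 µM, −0.04 at 48 h of 30 µM and −0.10 with fluvastatin. The effect at 100 µM was lower for 69 of the 192 than at 48 h of 30 µM and for 63 than with fluvastatin. In the same 2 tests it was lower for 4.32% and 4.16% of all genes. DNA replication genes had medians of −0.62, −0.18 and −0.30 in that order, and HIF targets 0.93, 0.34 and 0.28. The effect on HIF targets was higher at 100 µM than at 48 h of 30 µM for 15 of 25 and than with fluvastatin for 15. Over all genes it was higher for 3.91% and 1.62%. Mevalonate and sterol enzymes had 0.30, 0.12 and 0.30, and the difference from fluvastatin passed for no member, with 2 of 16 at an unadjusted p under 0.05 (limma). Mitosis genes had −0.31, −0.47 and −0.03, and histone cluster genes −0.45, −0.57 and −0.18. For these 2 lists the median at 48 h of 30 µM was below that at 100 µM, and the difference between the effects passed for no member of either list, with 2 of 33 mitosis and 1 of 16 histone genes at an unadjusted p under 0.05 (limma).

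**Figure D5:**
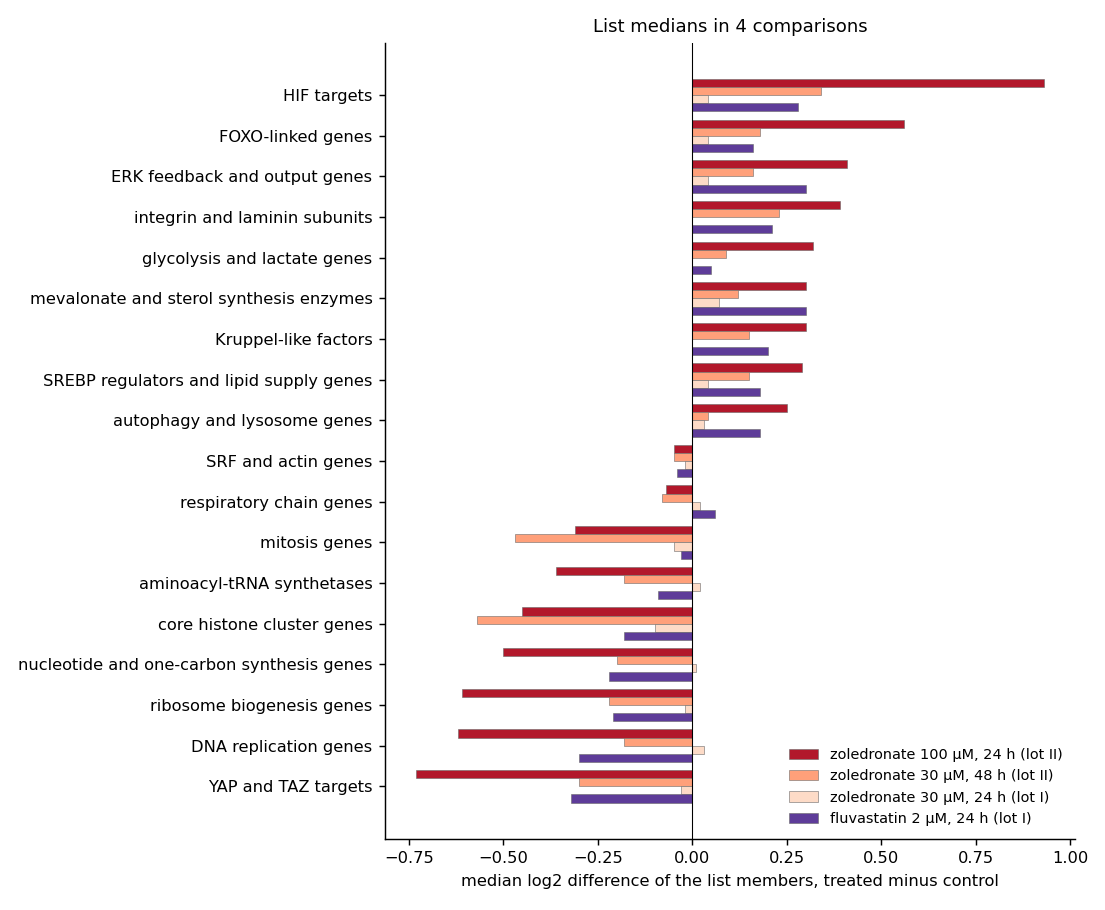
Median log2 difference from the matching control (horizontal axis) over the members of 18 gene lists (vertical axis) in 4 comparisons, with one bar per comparison starting at 0 and colours as in the key. The bar of 100 µM zoledronate is the longest except for mitosis, histone and respiratory chain genes, where that of 30 µM at 48 h is longer (−0.47, −0.57 and −0.08), and for mevalonate and for SRF genes, where another bar equals it.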

How the data were processed

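Total RNA of MDA-MB-231 cultures was hybridised to 40 one-colour expression arrays of Affymetrix, 1 array per sample. The deposited values are log2 signals that the authors made with RMA in Affymetrix Power Tools 1.10.2, per the submitters' processing notes, which also name limma. No scanner files were used here. Of 33297 probe sets, 19460 carried 1 gene symbol in GEO's platform annotation, 1754 carried several and 12083 were not listed; symbols were updated through RefSeq (GRCh38.p14), where 19429 matched. The brightest probe set by mean over all arrays stood for a gene with several (769 of 18417 genes).

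Effects were fitted with limma 3.58.1 in R 4.3.3 over all 40 arrays, with 16 blocks of lot, time and replicate number and 6 treated effects, and tested two-sided with Benjamini-Hochberg adjustment over 18417 genes at 0.05. The block follows the design text, which pairs treated and control cells by day of measurement; the deviations of same-numbered arrays correlated at 0.26, −0.09, 0.09 and −0.07. The fit was tested on simulated data. Alternatives changed the block, the arrays in the fit, the normalisation, a filter on dim genes, the choice of probe set, the variance model and the replicates.

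The groups, members and gene lists were chosen with earlier results of these data known. Genes were named by rule: the 15 largest rises and falls with the same sign in 4 of 4 pairs, up to 5 members of each list by smallest p together with members that moved against their list, a set of defining genes, the 5 largest differences each way from each other treatment, and genes of opposite sign between zoledronate treatments. The small nucleolar RNA grouping, and AMOTL2, CRIM1, ANKRD37, ANGPTL4, SLC2A1, PGGT1B, MAX, TEAD1, TEAD4, UBTF, POLA2, LIG1, MKI67, CD3E, PTPRC, CDH5, NCL, RPL3, EEF2, SNORD37, SNORD43, SNORA71C, SNHG17, VMP1 and the miRNA genes, were chosen after their values were seen. CA9 is not analysed here. Promoter motifs were counted in RefSeq windows of 250 bases before the start. The lists were drawn from genes known for a factor or process, so their motif shares describe the lists and were not tested.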

Additional observations from a re-analysis of the deposited data

Results flagged for a closer look

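In each group of 4 arrays, the array farthest out was set against the other 3 by Dixon's test, for 295 genes named above and 56 gene list means, which made 702 groups. The test marked 42, 37 for genes and 5 for lists, and chance marks about 1 in 20 groups. Treated replicate 1 was the highest of its group, by log2 signal, for CCN2 at 8.72, CDKN1A at 8.30, CXCR4 at 6.72 and SNORD20 at 4.56. Treated replicate 1 was the lowest of its group, by log2 signal, for CLDN7 at 8.79, CSF1 at 9.20, ELF3 at 7.55, FOXO4 at 7.68, P4HA1 at 10.10, PLXNA2 at 8.77, TCP11L2 at 8.52 and the mean of fibroblast and endothelial markers at 5.03. Treated replicate 2 was the highest of its group, by log2 signal, for MIR106B at 6.38 and the mean of ERK feedback and output genes at 10.03. Treated replicate 2 was the lowest of its group, by log2 signal, for the mean of immediate early factors at 7.80. Treated replicate 3 was the lowest of its group, by log2 signal, for SLC2A1 at 11.09 and the mean of autophagy and lysosome genes at 8.81. Treated replicate 4 was the highest of its group, by log2 signal, for GABARAPL1 at 7.31 and PDLIM7 at 9.49. Treated replicate 4 was the lowest of its group, by log2 signal, for E2F6 at 8.03, LDHB at 12.13, LSS at 8.96 and RABGGTB at 10.02. Control replicate 1 was the highest of its group, by log2 signal, for EPHA2 at 10.54, HBEGF at 10.43, MIR99A at 5.83, PLAU at 10.69, PSMB8 at 8.38, PTPRC at 3.48, UBTF at 10.02 and VMP1 at 11.26. Control replicate 1 was the lowest of its group, by log2 signal, for FN1 at 9.98, HHIP at 8.03 and SEMA3E at 5.82. Control replicate 2 was the lowest of its group, by log2 signal, for LYZ at 3.60. Control replicate 3 was the lowest of its group, by log2 signal, for ABCC4 at 8.58, KRT80 at 7.49 and PDGFRB at 5.93. Control replicate 4 was the highest of its group, by log2 signal, for LRP5 at 8.73 and the mean of oxygen sensors and HIF subunits at 8.26. Control replicate 4 was the lowest of its group, by log2 signal, for ANKRD1 at 12.92 and NF2 at 7.97. Treated replicate 1 held 12 of the marks and control replicate 1 held 11, and the cause was not tested.

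The effect of 100 µM zoledronate at 24 h differed, by the test of the difference between effects (limma, adjusted p under 0.05), from that of 30 µM at 24 h for 3746 genes, from that of 30 µM at 48 h for 1515 and from that of 2 µM fluvastatin at 24 h for 1065. Lot differs in the comparisons with 30 µM at 24 h and with fluvastatin, and time in that with 30 µM at 48 h. Among 13837 probe sets that carry no single gene symbol, which the comparisons above leave out, 1825 passed the same test (13.2%), 601 higher and 1224 lower, with differences from −2.68 to 1.55.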

How the results depend on the processing

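The count of genes past the threshold at 100 µM was 5888 and lay between 4380 and 7140 over 16 alternatives, 1 of which, a fit of the lot II arrays alone (4588 genes), was chosen after seeing the data. It stayed within 1.5 times of the main count in each, and no gene of the main count passed with the opposite sign in any of them. The split was 2826 higher and 3062 lower in the main fit, and 3216 and 2601 after quantile normalisation. The pairing of arrays by day of measurement comes from the design text. Without the replicate block 4380 genes passed at 100 µM, 4375 of them shared with the original count, and 22 of the named genes did not pass. Without it the differences from the other effects passed for 2065 genes in place of 3746 (30 µM, 24 h), 514 in place of 1515 (30 µM, 48 h) and 248 in place of 1065 (fluvastatin). Array weights gave 2918 for the difference from 30 µM at 48 h and 3132 for that from fluvastatin, and the lot II arrays alone gave 516 for the former. Leaving out 1 replicate pair gave 860 to 1384 for the difference from 30 µM at 48 h, lowest without replicate 2, and 588 to 749 for that from fluvastatin, with 673, 588 and 632 without replicate 2, 3 and 4. The fits that leave out a pair or use lot II alone hold fewer arrays, and for the other settings the cause was not tested. Of 295 named genes, 249 kept their direction and side of the threshold in every alternative run, and none reversed. The number of arrays limits the precision. With 4 against 4 a permutation test of a single gene that ignores the pairs cannot go below p = 0.0286 (exact, two-sided). A permutation within the pairs has fewer arrangements, so its limit is higher.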
